A study of Mus musculus with 15 samples.

Results

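Spleen B cells and T cells taken at 0 h, before any stimulation, were compared across genes on Affymetrix mouse expression arrays. The comparison holds 6 of the 15 arrays of the study, namely the 3 B cell arrays at 0 h and the 3 T cell arrays at 0 h, chosen by their titles. The other 9 arrays are B cells after 4 h with 25 µg/ml of lipopolysaccharide (LPS, a cell wall component of Gram-negative bacteria that activates B cells), and T cells after 4 h or after 14 h with 7.5 µg/ml of concanavalin A (ConA, a jack bean lectin that activates T cells), with 3 arrays each. All cells came from the spleens of B6x129 mice, a mixed background of C57BL/6 and 129, and the labels call the 0 h cells quiescent or resting. Genotype, age, sex and the way B and T cells were separated are not given in the labels, and neither is whether the arrays of a group came from separate animals or cultures, so every p-value measures the spread between these samples, which may be technical. Each gene is represented by its brightest probe set, judged by the mean of all 15 arrays. Of 18193 genes with a probe set of 1 symbol, the 9044 whose highest group mean was at least 5 were tested. Values are log2 signals, with a floor of 2.24 that 42.0% of all values on the 6 resting arrays share, and a difference is B cells minus T cells. Where the lower group averages under 4, close to the floor, the difference is a lower bound and its fold is written as at least that size.

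B and T lymphocytes recirculate through the same organs as small, mostly non-dividing cells. Each recognises antigen with a clonal receptor that has no kinase of its own. The receptor is paired with signalling chains, Cd79a and Cd79b in B cells and the CD3 and zeta chains in T cells, whose tyrosines are phosphorylated by Src family kinases and then bind a Syk family kinase, which acts through adaptors on phospholipase C gamma. B cells also present antigen on MHC class II and sense microbial products directly, while T cells read antigen on MHC molecules with the help of the coreceptors CD4 and CD8.

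The labelled cell types were first set against their markers. All 9 B cell markers tested were higher in B cells, and all 10 T cell markers were lower in B cells, 9 of them with a B cell mean under 4. Of all genes tested, 25.4% were higher and 51.1% lower in B cells at an adjusted p under 0.05. Cd79a read 12.67, 12.60 and 12.68 in B cells, against 2.34 on each of the 3 T cell arrays. Blnk read 13.02, 13.01 and 13.04 in B cells and 3.29, 3.29 and 3.22 in T cells, and Cr2, the complement receptor CD21, read 13.73, 13.69 and 13.75 in B cells and 3.25, 3.25 and 2.76 in T cells. These genes were high on every B cell array and near the floor on every T cell array. Cd3d read 2.87, 2.9 and 2.69 in B cells and 13.75, 13.81 and 13.77 in T cells, while Cd3g read 2.29, 2.35 and 2.55 in B cells and 13.30, 13.41 and 13.33 in T cells. Cd8b1, a chain of the CD8 coreceptor, read 2.67, 2.24 and 2.24 in B cells, against 13.13, 13.18 and 13.34 in T cells. The markers thus go with the labels. These 6 genes, near the floor in the other cell type, were named with the comparison and are among its largest differences. Their match with the labels is therefore no independent check.

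Markers of other cells also differed between the groups, where 25.4% of all genes tested were higher and 51.1% lower in B cells. All 11 tested macrophage and monocyte markers were higher in B cells, with a median difference of 5.76 and a log2 summed level of 13.33 to 13.36 in B cells against 8.25 to 8.73 in T cells. The complement gene C1qa read 9.34, 9.64 and 9.52 in B cells and 2.24 on each T cell array, Csf1r, the receptor for macrophage colony-stimulating factor, read 9.36, 9.30 and 9.35 in B cells and 2.56, 3.13 and 2.43 in T cells, and the scavenger receptor Cd163 read 8.10, 8.24 and 7.89 in B cells and 2.24, 2.24 and 2.37 in T cells. Of 9 erythroid markers 8 were higher and 1, Car1, was lower in B cells, with a log2 summed level of 14.23 to 14.31 in B cells against 12.65 to 12.68 in T cells. The red cell anion exchanger Slc4a1 differed by 8.98 ± 0.15 (SE), the haem enzyme Alas2 by 7.92 ± 0.06, and the carbonic anhydrase Car1 by -3.01 ± 0.11. The neutrophil genes S100a8 and S100a9 were higher in B cells by 2.73 ± 0.19 and 2.53 ± 0.20, and the 3 tested NK cell markers (Prf1, Klrd1 and Eomes), which cytotoxic T cells also express, were lower. In bulk samples such as these, fewer cells of a type and less RNA per cell cannot be told apart, and the part of such cells in the results below was not tested.

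**Figure D1:**
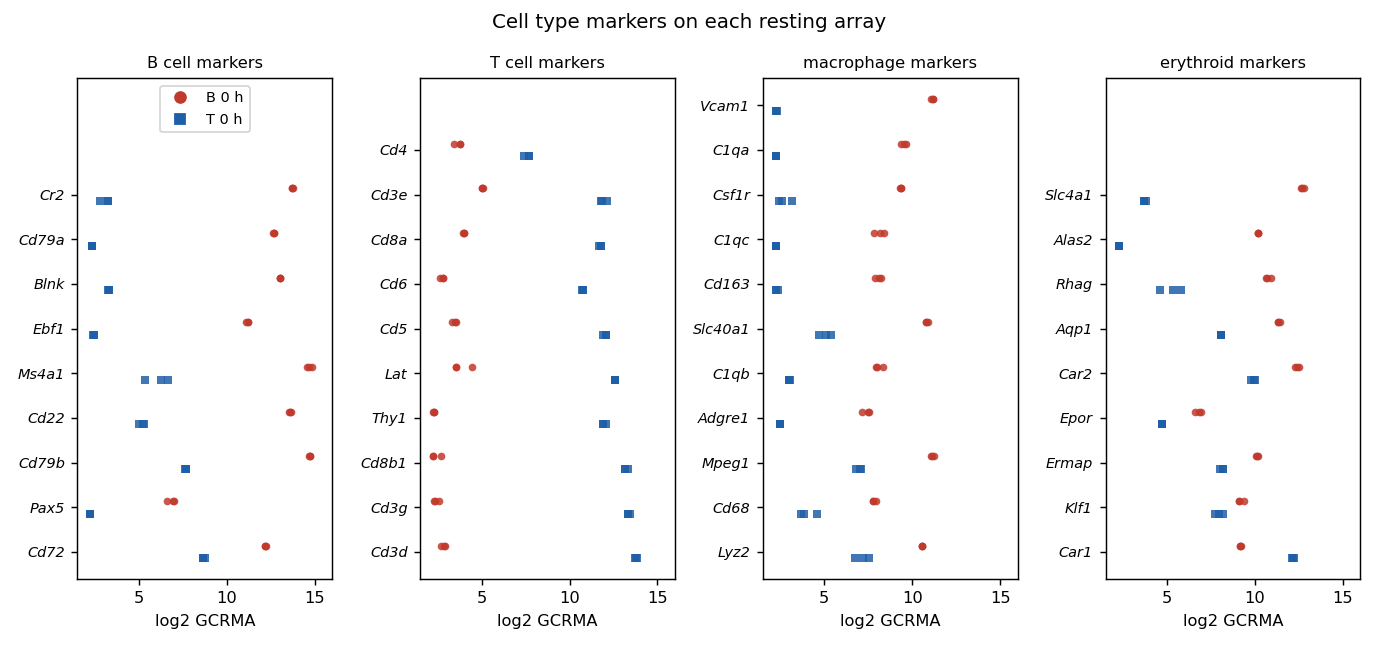
Log2 signal of B cell, T cell, macrophage and erythroid marker genes on each of the 3 resting B cell arrays (circles, B 0 h) and 3 resting T cell arrays (squares, T 0 h), with one row per gene. B cell and T cell markers separate the groups with no overlap, and the macrophage markers lie between 7.16 and 11.26 on B cell arrays.

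Technical signals of the arrays differed between the groups too. Replicate arrays correlated at 0.9962 to 0.9981 and arrays of different groups at 0.9167 to 0.9214 over all probe sets, and array medians lay between 2.46 and 2.57. A control probe set at the 3′ end of 18S ribosomal RNA gave means of 5.78 ± 0.33 for B cells and 10.02 ± 0.72 for T cells (SD, n = 3 each). The excess of 3′ over 5′ signal of the dap spike-in RNA was 0.75 ± 0.05 for B cells and 2.81 ± 1.48 for T cells, with 4.52 on T cell replicate 2, while that of actin was 0.49 ± 0.02 for B cells and 0.45 ± 0.05 for T cells. Without T cell replicate 2 there were 6610 calls in place of the 6927 given next, and leaving out each of the 6 resting arrays in turn gave 6610 to 6723. Labelling, whose control signals lie apart between the groups, and cell type cannot be told apart. With 3 arrays in a group, their number sets the precision.

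Of the 9044 genes tested, 6927 (76.6%) passed an adjusted p under 0.05, with 2301 (25.4%) higher and 4626 (51.1%) lower in B cells, so a call by itself sets a gene apart from few others. Differences of at least 2-fold were found in 1105 genes (12.2%) that were higher and 1839 (20.3%) that were lower in B cells, and differences of at least 4-fold in 576 (6.37%) and 703 (7.77%). The groups did not overlap in 7216 genes (79.8%). Toward the largest sizes the numbers became alike, with 90 genes (0.995%) higher and 84 (0.929%) lower in B cells by at least 64-fold. The numbers of higher and lower calls depended on scaling. The median over all genes tested was -0.27 (quartiles -0.84 and 0.26), it was -0.42 for genes with a mean level of 5 to 6 and -0.12 for those of 12 to 16, and with the median of the tested genes set equal on all arrays, an alternative chosen after seeing the data, 3278 genes were higher and 3503 lower in B cells. With the medians over all probe sets set equal, 1996 were higher and 5135 lower. Labelling started from 100 ng of RNA in every sample, and normalization brought the arrays to a common scale, so cells with more RNA would not stand out here.

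**Figure D2:**
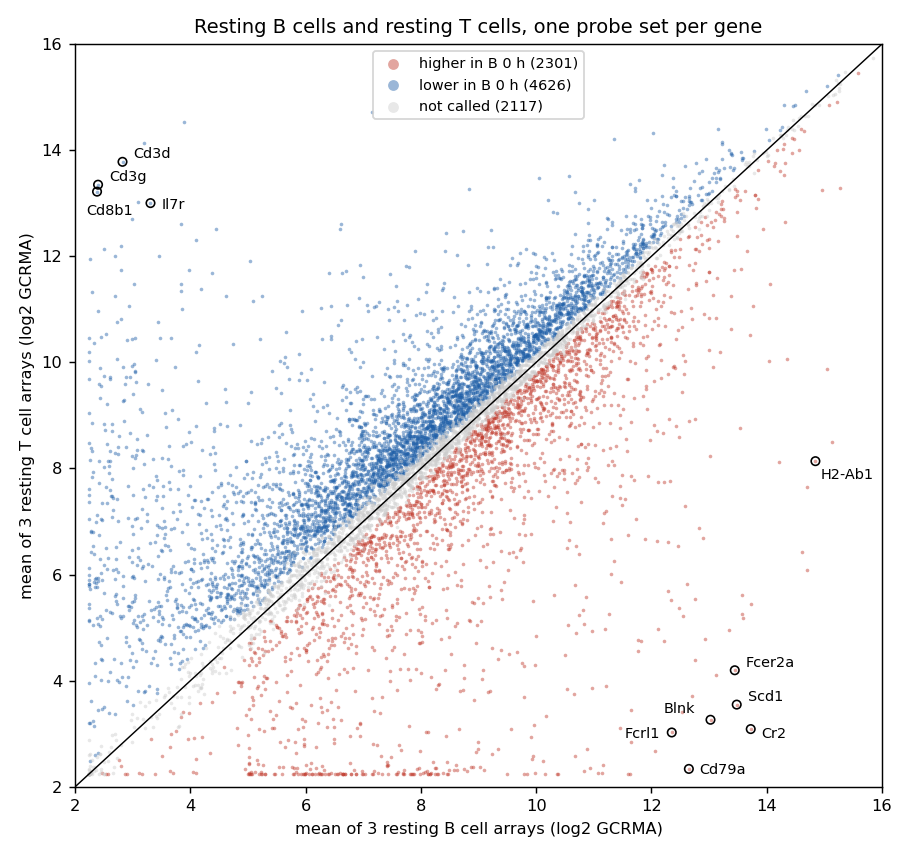
Mean log2 signal of the 3 resting B cell arrays (horizontal axis) against that of the 3 resting T cell arrays (vertical axis) for 9044 genes, coloured by the call at an adjusted p under 0.05, with the diagonal marking equality. Genes named on the plot average under 4 in one cell type and above 12 in the other, except Fcer2a, at 4.2 in T cells, and H2-Ab1, which is above 8 in T cells.

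Antigen receptor segments and predicted or RIKEN genes without a name were left out of the ranking by size. The 15 largest differences with B cells higher were Cr2 (10.63 ± 0.18), Cd79a (10.31 ± 0.07), Scd1 (9.93 ± 0.09), Blnk (9.76 ± 0.06), Siglecg (9.40 ± 0.10), Marchf1 (9.39 ± 0.06), Srpk3 (9.35 ± 0.13), Fcrl1 (9.33 ± 0.11), Fcer2a (9.25 ± 0.14), Spib (9.11 ± 0.11), Ly6d (9.01 ± 0.15), Slc4a1 (8.98 ± 0.15), Vcam1 (8.89 ± 0.14), S1pr3 (8.82 ± 0.11) and Rasgrp3 (8.80 ± 0.09). Scd1, the stearoyl-CoA desaturase that makes monounsaturated fatty acids, read 13.50, 13.44 and 13.50 in B cells, against 3.51, 3.62 and 3.51 in T cells. Srpk3, a protein kinase of serine and arginine rich proteins, read 11.57, 11.52 and 11.67 in B cells, against 2.24 on each T cell array. Slc4a1 and Vcam1 belong to the erythroid and macrophage marker lists given above. Vcam1, an adhesion molecule of stroma and red pulp macrophages, read 11.18, 11.17 and 11.07 in B cells and 2.24, 2.24 and 2.28 in T cells.

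With the same genes left out, the 15 largest differences in the other direction were Cd3d (-10.96 ± 0.15), Cd3g (-10.95 ± 0.09), Cd8b1 (-10.84 ± 0.12), Bcl11b (-9.93 ± 0.13), Igfbp4 (-9.71 ± 0.35), Thy1 (-9.70 ± 0.12), Il7r (-9.69 ± 0.17), Cd247 (-9.63 ± 0.08), Dapl1 (-9.40 ± 0.21), Cd28 (-9.31 ± 0.23), Cd27 (-9.03 ± 0.08), Nkg7 (-8.96 ± 0.16), Lat (-8.76 ± 0.22), F2r (-8.57 ± 0.11) and Cd5 (-8.55 ± 0.08). Il7r, the receptor chain for the survival cytokine of naive T cells, read 3.58, 2.77 and 3.58 in B cells, against 13.08, 12.99 and 12.93 in T cells. Igfbp4, a binding protein for insulin-like growth factors, read 2.99 on each B cell array, against 12.73, 12.74 and 12.63 in T cells. F2r, the thrombin receptor, read 2.31, 2.64 and 2.24 in B cells and 10.86, 11.09 and 10.97 in T cells. The B cell means of Il7r, Igfbp4 and F2r were all under 4. Further probe sets are counted here and below only if a resting group mean was at least 5. Of these 30 genes, 15 had such probe sets, and all 25 of those differed in the same direction and by at least 2-fold. A probe set can pass this filter through the higher group alone, and dimmer ones were left out, so this is not an independent check.

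B cell receptor genes were higher in B cells with 1 exception. Of 17 tested genes of the receptor complex and its proximal signalling, 16 were higher in B cells, none was lower and 1 (Vav3, 0.14 ± 0.27) did not pass. The median difference was 6.79, against -0.27 over all genes tested, of which 25.4% were higher. Besides Cd79a, its partner Cd79b read 14.67, 14.71 and 14.74 in B cells, against 7.66, 7.69 and 7.59 in T cells. Blk, a Src family kinase of B cells, read 11.63, 11.66 and 11.63 in B cells and 3.41, 3.78 and 3.13 in T cells, a difference of 8.20 ± 0.14 or at least 294-fold. The T cell level of Cd79b was well above the floor and that of Blk was near it. Btk, the Tec family kinase lost in X-linked agammaglobulinaemia, read 9.97, 10.04 and 9.86 in B cells and 3.18, 3.17 and 3.17 in T cells. The scaffold Bank1 differed by 8.29 ± 0.12, the adaptor Bcar3 by 8.18 ± 0.10, and Pik3ap1 (BCAP), which couples the receptor to PI3K, by 6.16 ± 0.14. Cd81, a tetraspanin of the cell surface, differed by 3.62 ± 0.12 and Dapp1, an adaptor that binds PI3K products, by 0.92 ± 0.09. Lyn was not analysed here.

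T cell receptor genes showed the reverse. All 17 tested genes of the receptor complex and coreceptors were lower in B cells (median -8.03), beside 51.1% of all genes. Cd3e read 5.02, 5.02 and 5.08 in B cells, against 11.84, 12.11 and 11.81 in T cells, and the zeta chain Cd247 read 2.59, 2.51 and 2.41 in B cells, against 12.15, 12.06 and 12.19 in T cells. Cd8a read 4.01, 4.01 and 3.94 in B cells, against 11.76, 11.66 and 11.81 in T cells. Cd4 read 3.77, 3.42 and 3.76 in B cells and 7.71, 7.42 and 7.70 in T cells, a difference of -3.96 ± 0.13. The costimulatory receptor Cd28 differed by -9.31 ± 0.23 and its relatives Icos and Ctla4 by -6.45 ± 0.23 and -4.89 ± 0.14, while the adhesion receptor Cd2, at 10.93, 10.88 and 10.97 in B cells and 12.29, 12.36 and 12.29 in T cells, differed least (-1.39 ± 0.10).

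Of 24 genes of proximal T cell receptor signalling, 23 were lower in B cells and 1, Tespa1, was higher (0.84 ± 0.19). The list median was -3.95, and 51.1% of all genes were lower. Lat, the membrane adaptor that gathers the signalling complex, read 3.53, 3.54 and 4.47 in B cells, against 12.58, 12.61 and 12.61 in T cells. Skap1, an adaptor linking the receptor to integrins, read 2.76, 2.66 and 2.67 in B cells, against 11.24, 11.22 and 11.26 in T cells. Sh2d1a (SAP), the adaptor of SLAM receptors, differed by -8.01 ± 0.15, Trat1, which stabilises the receptor, by -7.79 ± 0.07, and Themis, a regulator of thymic selection, by -6.33 ± 0.12. Other members of the list were present in both cell types. The kinase regulator Pag1 read 11.61, 11.57 and 11.58 in B cells and 11.94, 11.85 and 11.75 in T cells, and the exchange factor Vav1 read 9.39, 9.44 and 9.27 in B cells and 9.75, 9.58 and 9.58 in T cells (-0.26 ± 0.07 and -0.27 ± 0.07). Lck was not analysed here.

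The receptor pathways of both lineages use related proteins at the same step. In all, 9 pairs of related genes were compared, chosen after their values were seen. Among them, Bcl11a with Bcl11b and Ms4a1 with Ms4a4b are related by family and were not paired as a step of these pathways. In each pair the difference of one member was positive and that of the other negative. Syk, the kinase that binds the phosphorylated B cell receptor chains, read 12.07, 12.14 and 12.13 in B cells and 4.99, 5.08 and 4.84 in T cells (7.14 ± 0.22). Zap70, its counterpart at the T cell receptor, read 3.95, 3.95 and 4.56 in B cells and 10.35, 10.24 and 10.37 in T cells (-6.17 ± 0.24). The phospholipase Plcg2 differed by 6.0 ± 0.14 and Plcg1 by -4.16 ± 0.17, and the adaptor Blnk by 9.76 ± 0.06 and its relative Lcp2 by -4.38 ± 0.16. Among exchange factors for Ras, Rasgrp3 read 11.61, 11.65 and 11.67 in B cells and 2.97, 2.99 and 2.58 in T cells (8.80 ± 0.09). Rasgrp1 was seen in both cell types, at 10.68, 10.58 and 10.61 in B cells and 12.21, 12.20 and 12.18 in T cells, and 1 of its 3 further probe sets went the same way. Of the protein kinases C downstream, Prkcq differed by -8.46 ± 0.26, while Prkcb, at 13.14, 13.08 and 13.21 in B cells and 11.60, 11.63 and 11.55 in T cells, differed by 1.55 ± 0.08. The pairing thus runs from genes near the floor in one cell type, such as Blnk and Prkcq, to genes that differ about 3-fold, such as Prkcb (2.93-fold higher) and Rasgrp1 (2.97-fold lower in B cells).

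**Figure D3:**
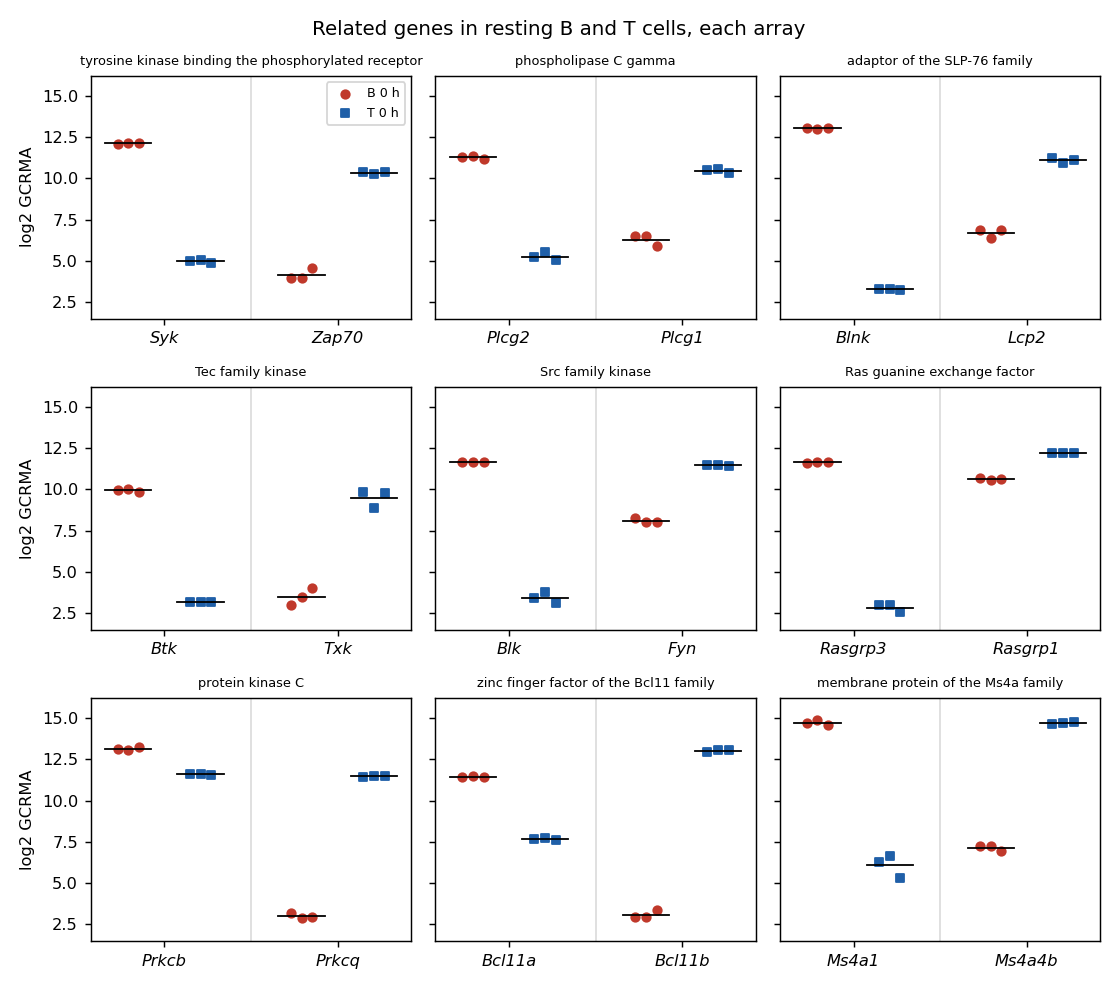
Log2 signal of 9 pairs of related genes on each resting B cell array (circles, B 0 h) and T cell array (squares, T 0 h), with bars for the means of 3 arrays. In every panel the gene on the left is higher in B cells and the gene on the right is lower, and Prkcb and Rasgrp1 are above 10 in both cell types.

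Receptors that restrain or tune the B cell receptor formed a second group. All 14 tested genes of B cell inhibitory and complement receptors were higher in B cells (median 7.07), beside 25.4% of all genes. Siglecg, a sialic acid binding inhibitor that is best known on B-1 cells, read 12.03, 12.01 and 12.16 in B cells, against 2.67, 2.67 and 2.66 in T cells. Cd22, the related inhibitor of conventional B cells, read 13.56, 13.58 and 13.65 in B cells, against 5.00, 5.31 and 5.22 in T cells. Fcgr2b, the inhibitory receptor for IgG complexes, read 12.70, 12.75 and 12.84 in B cells, against 4.36, 4.52 and 4.30 in T cells. The low-affinity IgE receptor Fcer2a (CD23), a marker of follicular B cells, read 13.41, 13.44 and 13.48 in B cells and 4.22, 4.20 and 4.18 in T cells. The Fc receptor-like genes Fcrl1 and Fcrla differed by 9.33 ± 0.11 and 8.34 ± 0.14. The shared phosphatases through which such receptors act were closer, with Ptpn6 (SHP-1) at 13.73, 13.69 and 13.55 in B cells and 12.21, 12.01 and 12.07 in T cells (1.55 ± 0.07) and Inpp5d (SHIP-1) at 1.37 ± 0.06. Pirb (5.80 ± 0.12), Cd300a (3.17 ± 0.07) and Lair1 (1.5 ± 0.26) are receptors of myeloid cells too and moved in the same direction as the macrophage markers.

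Transcription factors of each lineage followed the same division, with smaller medians. Of 21 B cell factors 20 were higher in B cells and 1, Klf4, did not pass (-0.18 ± 0.20). The list median was 3.77, and 25.4% of all genes were higher. Spib, an Ets factor of B cells and plasmacytoid dendritic cells, read 12.51, 12.50 and 12.56 in B cells, against 3.41, 3.61 and 3.22 in T cells. Ebf1, which specifies the B lineage, read 11.09, 11.20 and 11.18 in B cells and 2.43, 2.37 and 2.42 in T cells. Pax5, the factor that commits progenitors to the B lineage, was dimmer on its probe set, at 6.96, 6.62 and 7.02 in B cells and 2.24 on each T cell array. The T cell means of Spib, Ebf1 and Pax5 were all under 4, so their differences are lower bounds. Mef2c differed by 7.32 ± 0.17, Irf8 by 5.67 ± 0.10, Irf4 by 5.15 ± 0.19 and the octamer coactivator Pou2af1 (OBF-1) by 4.77 ± 0.08, with its partner Pou2f2 (Oct-2) at 3.59 ± 0.16. Foxp1 (0.81 ± 0.07), Nfatc1 (0.75 ± 0.07) and Bach2 (0.37 ± 0.05) passed with differences under 2-fold. Bach2, a repressor that holds back plasma cell fate in B cells and effector fate in T cells, read 11.75, 11.68 and 11.75 in B cells and 11.35, 11.39 and 11.33 in T cells.

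Of 22 T cell factors 21 were lower in B cells and 1, Bhlhe40, was higher (3.30 ± 0.13). The list median was -1.86, and 51.1% of all genes were lower. Bcl11b, which commits thymocytes to the T lineage, read 2.93, 2.93 and 3.39 in B cells, against 12.95, 13.03 and 13.07 in T cells. Its relative Bcl11a, a factor of early B cells, read 11.44, 11.46 and 11.44 in B cells and 7.65, 7.75 and 7.63 in T cells (3.77 ± 0.20). Lef1, a nuclear partner of beta-catenin, read 4.50, 4.53 and 3.26 in B cells, against 12.33, 12.31 and 12.26 in T cells. Gata3, required for T cell development and for type 2 helper cells, read 2.24 on each B cell array and 9.18, 8.98 and 8.99 in T cells. Eomes and Tbx21, factors of cytotoxic and memory cells, differed by -6.88 ± 0.23 and -4.16 ± 0.14, and the Ikaros family member Ikzf2 (Helios) by -6.79 ± 0.09. Factors shared by both lineages differed less, among them Ets1 (-0.90 ± 0.09), Satb1 (-1.65 ± 0.06), Runx1 (-1.17 ± 0.19) and Runx3 (-0.79 ± 0.09). Ets1 read 13.22, 13.30 and 13.13 in B cells and 14.11, 14.04 and 14.19 in T cells, and 1 of its 3 further probe sets went the same way. Tcf7 was not analysed here.

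Some factors that bind known DNA motifs stood on opposite sides, while the Runx factors were among those shared by both lineages. Shown here is promoter sequence of 4 genes with large differences, picked because they hold such a motif. Each is the 250 bases upstream of the RefSeq gene start, 5′ to 3′ on the gene's strand (build GRCm38.p6), with a motif in capitals, searched on both strands. Blnk (chr19:40994222-40994471, minus strand) holds the octamer ATGCAAAT of Oct factors, read here in reverse complement with its first printed base 130 bases before the start. Cd22 (chr7:30879029-30879278, minus strand) holds the palindromic core bound by EBF1 at 49 bases. Cd3d (chr9:44981536-44981785, plus strand) holds the TCF and LEF core CTTTGAT, in reverse complement, at 55 bases, and Txk (chr5:72736603-72736852, minus strand), a Tec family kinase of T cells (-5.98 ± 0.39), holds the RUNX core TGTGGTTT, also in reverse complement, at 22 bases.
Blnk: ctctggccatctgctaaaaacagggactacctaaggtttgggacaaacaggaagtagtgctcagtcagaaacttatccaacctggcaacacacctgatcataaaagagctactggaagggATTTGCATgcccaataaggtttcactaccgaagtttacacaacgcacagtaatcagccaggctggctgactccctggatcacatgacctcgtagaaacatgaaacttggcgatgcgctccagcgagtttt
Cd22: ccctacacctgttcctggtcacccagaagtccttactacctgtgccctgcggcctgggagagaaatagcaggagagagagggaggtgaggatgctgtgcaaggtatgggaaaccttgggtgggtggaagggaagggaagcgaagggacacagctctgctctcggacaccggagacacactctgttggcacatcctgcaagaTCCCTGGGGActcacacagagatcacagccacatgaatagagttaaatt
Cd3d: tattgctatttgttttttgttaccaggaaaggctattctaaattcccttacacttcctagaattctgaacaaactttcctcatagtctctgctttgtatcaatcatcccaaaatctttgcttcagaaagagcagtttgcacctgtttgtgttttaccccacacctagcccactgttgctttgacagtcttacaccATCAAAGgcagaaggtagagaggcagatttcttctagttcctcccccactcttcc
Txk: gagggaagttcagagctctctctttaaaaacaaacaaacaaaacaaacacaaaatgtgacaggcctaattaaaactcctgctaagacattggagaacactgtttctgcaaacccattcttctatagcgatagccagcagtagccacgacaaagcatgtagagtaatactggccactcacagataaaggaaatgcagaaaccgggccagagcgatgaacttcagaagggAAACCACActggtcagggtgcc
A match is a description of these letters, not evidence of binding. RefSeq promoters were found for 7424 of the tested genes. The octamer occurred in 13 of 606 promoters (2.15%) of genes at least 4-fold higher in B cells and in 7 of 710 (0.986%) of genes at least 4-fold lower, against 1.12% of promoters of all tested genes and 1.60% of all promoters. The EBF1 core occurred in 14 of the 606 (2.31%) and in 7 of the 710 (0.986%), against 0.885% of the promoters of tested genes. The shares of the TCF and LEF core (2.48% and 2.39%, against 2.33% of the promoters of tested genes) and of the RUNX core (1.49% and 0.986%, against 0.990%) lay closer together. Each motif also lay upstream of genes on the other side, such as Acpp (-6.19) for the octamer and Sgk1 (-3.39) for the EBF1 core. Fcrl1 (9.33) held the TCF and LEF core and Cybb (7.46) the RUNX core. No test was made of these shares, and a gene can have several promoters.

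Antigen presentation on MHC class II was higher in B cells throughout, with 12 of 12 tested genes higher (median 5.68), beside 25.4% of all genes. Ciita, the master regulator of these genes, read 9.03, 9.13 and 9.13 in B cells, against 2.26, 2.37 and 2.30 in T cells. The class II chain H2-Ab1 read 14.84, 14.79 and 14.90 in B cells and 8.13, 8.16 and 8.13 in T cells, and the invariant chain Cd74 read 15.10, 15.03 and 15.24 in B cells and 8.6, 8.5 and 8.36 in T cells. Signal of class II chains in T cells thus stood well above the floor while that of Ciita did not. The chaperone subunit H2-DMb2 differed by 7.96 ± 0.09 and the DO chains H2-Oa and H2-Ob, which restrain peptide exchange, by 5.28 ± 0.10 and 4.01 ± 0.09. Marchf1, a ubiquitin ligase that removes class II from the surface, read 11.70, 11.51 and 11.69 in B cells and 2.27, 2.24 and 2.24 in T cells. The protease Ctss, which trims the invariant chain, differed least among the bright genes (1.66 ± 0.06). On chromosome 17 the tested neighbours H2-Ob, H2-Ab1, H2-Aa, H2-Eb1 and H2-Eb2 were each at least 4-fold higher in B cells, a run of 5 such genes. Macrophages also express class II, and their markers were higher on the same arrays.

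Genes for sensing microbial products were likewise higher in B cells, in 11 of 12 tested (median 4.55), beside 25.4% of all genes. Ly86 (MD-1), the partner of the B cell LPS-sensing receptor Cd180, read 13.38, 13.28 and 13.38 in B cells, against 5.09, 5.00 and 4.80 in T cells, and Cd180 itself differed by 4.36 ± 0.12. Unc93b1, which carries nucleic acid sensing receptors to endosomes, read 11.79, 11.74 and 11.77 in B cells and 4.68, 4.68 and 4.33 in T cells. Tlr4, the LPS receptor, read 7.30, 6.67 and 6.98 in B cells and 2.24 on each T cell array. Tlr7, a sensor of single-stranded RNA, read 7.80, 7.69 and 7.65 in B cells and 2.31 on each T cell array. Both were at the floor in T cells. Tlr1 was bright in both cell types (1.41 ± 0.09). The shared adaptor Myd88 was lower in B cells, at 8.83, 8.52 and 8.63 against 9.28, 9.35 and 9.18 in T cells (-0.61 ± 0.08). Tlr2, Tlr9 and Cd14 were under the filter on low values. Macrophages express Tlr4 too, their markers were higher on the B cell arrays, and their part in its level was not tested.

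Of 20 tested genes in a list of TNF family receptors and ligands, 6 were higher and 14 lower in B cells. Of all genes 25.4% were higher and 51.1% lower. The list also holds Btla and Cd160, which are outside that family. Cd40, which receives T cell help, read 10.82, 10.94 and 11.14 in B cells and 3.66, 3.97 and 3.96 in T cells. Tnfrsf13c, the receptor for the survival factor BAFF, read 12.44, 12.49 and 12.47 in B cells and 5.67, 5.57 and 4.89 in T cells, and its relative Tnfrsf13b (TACI) differed by 4.56 ± 0.11. Cd27, a costimulatory receptor of T cells, read 2.35, 2.27 and 2.27 in B cells and 11.45, 11.15 and 11.37 in T cells. These receptors were at opposite ends of the list. The death receptor Tnfrsf25 differed by -6.07 ± 0.12, Cd160 by -5.16 ± 0.10, Tnfsf8 (CD30 ligand) by -4.44 ± 0.35, Tnfsf11 (RANK ligand) by -3.88 ± 0.09 and Fasl by -3.59 ± 0.10. The lymphotoxin genes Lta (1.45 ± 0.10) and Ltb (0.38 ± 0.08) were higher in B cells, and the attenuating receptor Btla, at 13.71, 13.74 and 13.82 in B cells and 11.09, 11.13 and 10.98 in T cells, was bright in both. Cd40lg was under the filter.

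Genes of the marginal zone, follicular and B-1 subsets were mixed, with 11 of 15 higher in B cells, 3 lower and 1 not called (Zbtb32, 0.14 ± 0.17). Over all genes 25.4% were higher and 51.1% lower. The marginal zone genes S1pr3, a sphingosine 1-phosphate receptor, and Cd36, a scavenger receptor, read 11.09, 11.05 and 11.09 and 10.83, 10.79 and 10.84 in B cells. In T cells S1pr3 read 2.25, 2.28 and 2.24 and Cd36 read 2.29 on each array. Cd36 is also made by macrophages and red cell precursors, whose markers were higher on the same arrays. Mzb1, a chaperone of immunoglobulin assembly, read 12.91, 12.87 and 12.91 in B cells and 6.73, 6.82 and 6.51 in T cells. The subset genes that were lower in B cells were Cd5 (-8.55 ± 0.08), a T cell gene that B-1a cells carry at a low level, Rgs10 (-5.02 ± 0.11) and Cd9 (-0.69 ± 0.07). Cd5 read 3.49, 3.52 and 3.33 in B cells. Notch2 (0.36 ± 0.11) and its target Dtx1 (0.35 ± 0.07), genes of the marginal zone fate, were nearly level between B and T cells.

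Immunoglobulin and T cell receptor segments were kept apart, since probe sets of related segments can cross-react and the named probe set need not report that segment alone. Of 15 immunoglobulin probe sets 12 were higher in B cells, 2 were lower and 1 did not pass, and all 6 T cell receptor probe sets were lower in B cells. Over all genes tested 25.4% were higher and 51.1% lower. The probe set named Ighm read 14.13, 14.09 and 14.22 in B cells and 13.79, 13.80 and 13.70 in T cells, a difference of 0.39 ± 0.07. Those named Igha and Ighg3 were lower in B cells, by -0.92 ± 0.06 and -2.12 ± 0.11, and so was the joining chain Jchain, at 11.69, 11.88 and 11.81 in B cells and 12.17, 12.28 and 12.12 in T cells (-0.40 ± 0.08). Other probe sets did not all go the same way: of those with the same symbol, 2 of 6 shared the direction for Ighm, 2 of 2 for Igha and 0 of 1 for Ighg3. The T cell arrays thus carried bright immunoglobulin signal on arrays where Cd79a was at 2.34. Igkv8-30 read 15.26, 15.22 and 15.32 in B cells and 13.38, 13.23 and 13.24 in T cells, whereas Ighv14-2 read 14.59, 14.63 and 14.58 in B cells and 6.65, 6.44 and 6.19 in T cells. The probe sets named Trav9d-3 and Trbv1 differed by -10.93 ± 0.12 and -10.64 ± 0.12, and those of the gamma chain, Trgv4 and Trgv1, by -7.45 ± 0.14 and -6.76 ± 0.14.

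The T cell arrays also carried genes of cytotoxic and memory cells, of which all 15 tested were lower in B cells (median -5.01), beside 51.1% of all genes. For 12 of the 15 the B cell mean was under 4. Nkg7, a cytotoxic granule protein, read 2.68, 2.55 and 3.14 in B cells, against 11.73, 11.77 and 11.74 in T cells, and the granule protease Ctsw read 2.94 on each B cell array, against 11.04, 11.10 and 11.05 in T cells. The protease inhibitor Cst7 differed by -7.07 ± 0.27, the chemokine receptor Cxcr3 by -5.41 ± 0.23 and the granzyme Gzmb by -5.32 ± 0.12. Gzmb read 2.43, 2.79 and 2.56 in B cells and 7.89, 8.03 and 7.83 in T cells. The chemokine Ccl5 was above the floor in both cell types, at 6.98, 6.61 and 6.52 in B cells and 11.69, 11.77 and 11.68 in T cells. Of 12 genes of regulatory T cells 11 were lower in B cells and 1, the actin-capping gene Capg, was higher (3.44 ± 0.09), beside 51.1% and 25.4% of all genes. Foxp3, the factor that defines these cells, read 2.27, 2.37 and 2.27 in B cells and 5.12, 5.25 and 4.77 in T cells. The integrin chain Itgae differed by -5.60 ± 0.30 and the receptor Gpr83 by -5.02 ± 0.15.

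Receptors for chemokines and egress signals were higher in B cells in 8 of 17 cases, lower in 7 and not called in 2 (median 0.21), beside 25.4% higher and 51.1% lower of all genes. Cxcr5, which leads B cells to follicles, read 12.76, 12.78 and 12.75 in B cells, against 6.01, 5.10 and 5.52 in T cells. Ackr3, a scavenger of the chemokine CXCL12, read 10.04, 10.08 and 9.84 in B cells, against 2.27, 2.26 and 2.27 in T cells. Ccr6 differed by 5.61 ± 0.13 and the cannabinoid receptor Cnr2, which retains B cells in the marginal zone, by 4.09 ± 0.12. On the other side, Cxcr6, a receptor of memory and NKT cells, read 2.25, 2.51 and 2.24 in B cells and 10.48, 10.15 and 10.45 in T cells, and Ccr9, a gut homing receptor, differed by -7.32 ± 0.20. Ccr7, which leads lymphocytes to T cell zones, was bright in both, at 10.70, 10.79 and 10.54 in B cells and 12.53, 12.12 and 12.60 in T cells (-1.74 ± 0.13). The egress receptor S1pr1 (0.21 ± 0.14) and the bone marrow homing receptor Cxcr4 (0.01 ± 0.07) did not pass. Cxcr4 read 9.96, 9.98 and 9.90 in B cells and 9.93, 9.95 and 9.93 in T cells.

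Of 28 cytokine receptor genes 8 were higher in B cells, 17 were lower and 3 did not pass, shares near the 25.4% and 51.1% of all genes. Besides Il7r, Il18r1 read 2.24 on each B cell array and 10.10, 10.27 and 10.21 in T cells, and its partner Il18rap differed by -4.50 ± 0.17. Il6ra read 4.69, 4.61 and 4.53 in B cells, against 11.23, 11.29 and 11.22 in T cells, and the shared signalling chain Il6st read 7.56, 7.72 and 7.93 in B cells and 11.78, 11.81 and 11.85 in T cells. Both chains of the interleukin 6 receptor were therefore lower in B cells. The TGF-beta coreceptor Tgfbr3 differed by -6.94 ± 0.12, whereas the signalling receptor Tgfbr2 read 12.43, 12.45 and 12.53 in B cells and 12.56, 12.34 and 12.42 in T cells and did not pass (0.03 ± 0.08). The receptors higher in B cells were led by Il9r (5.33 ± 0.18) and Il5ra (3.44 ± 0.18), a receptor of B-1 cells. The chains of the interferon receptors were split, with Ifngr2 (1.02 ± 0.17) and Ifnar1 (0.84 ± 0.14) higher in B cells and Ifngr1 (-1.25 ± 0.12) and Ifnar2 (-1.99 ± 0.16) lower.

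Of 24 integrin, SLAM family and other adhesion genes 8 were higher, 13 lower and 3 not called in B cells (median -0.29), near the shares of all genes (25.4% higher and 51.1% lower) and their median of -0.27. The integrin chain Itgb7 read 7.83, 7.68 and 7.77 in B cells, against 11.15, 11.01 and 11.06 in T cells, and Itga6 read 6.66, 6.56 and 6.47 in B cells, against 10.76, 10.70 and 10.66 in T cells. Selplg, the ligand of P-selectin, differed by -3.69 ± 0.07 and Itgb3 by -4.16 ± 0.18. The LFA-1 chains Itgal and Itgb2 were lower in B cells by -1.16 ± 0.07 and -1.01 ± 0.07, though the other Itgal probe set did not go the same way. Higher in B cells were Itgax (3.75 ± 0.06), Cd93 (2.86 ± 0.21) and Pecam1 (2.51 ± 0.22), which are also expressed in dendritic, myeloid and endothelial cells, and the SLAM receptors Ly9 (1.53 ± 0.15) and Slamf1 (1.44 ± 0.08). For Slamf1, 1 of its 2 further probe sets went the same way. Among 8 Gimap GTPases, lymphocyte survival genes in 1 cluster, 5 were lower, 1 was higher and 2 did not pass, all within -1.32 and 0.46. The calls of Gimap5 (-0.28 ± 0.11), Gimap8 (-0.28 ± 0.06) and Gimap1 (0.46 ± 0.15) were lost under at least 1 alternative processing.

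Of 24 genes of PI3K, protein kinase C and diacylglycerol signalling 9 were higher and 15 lower in B cells, beside 25.4% and 51.1% of all genes. Prkch read 3.03, 2.85 and 3.10 in B cells, against 10.52, 10.41 and 10.41 in T cells, and the lipid phosphatase Inpp4b read 2.57, 2.39 and 2.41 in B cells, against 9.56, 9.22 and 9.91 in T cells. Protein kinases C with the reverse difference were Prkce (2.99 ± 0.11) and Prkcd (2.48 ± 0.10). The diacylglycerol kinases Dgka and Dgkz, which damp Ras activation, were lower in B cells by -2.85 ± 0.19 and -1.15 ± 0.07, and Dgkd was higher (0.92 ± 0.06). The leukocyte PI3K catalytic chain Pik3cd read 9.95, 9.85 and 9.96 in B cells and 11.70, 11.67 and 11.74 in T cells (-1.78 ± 0.06), and the PI3K inhibitor Pik3ip1 differed by -4.05 ± 0.16.

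Of 17 ion channel and purine receptor genes 7 were higher, 9 lower and 1 not called in B cells, while 25.4% of all genes were higher and 51.1% lower. The store-operated channel genes Orai2 and Orai1 differed by -3.46 ± 0.10 and -2.75 ± 0.11, and the calcium sensors that open such channels, Stim1 and Stim2, by -2.52 ± 0.21 and -0.91 ± 0.10. Orai2 read 7.01, 7.07 and 6.85 in B cells and 10.35, 10.40 and 10.56 in T cells. Stim1 read 5.99, 6.02 and 5.58 in B cells and 8.55, 8.31 and 8.30 in T cells. Orai3, of the same channel family, was higher in B cells (0.82 ± 0.14). Among enzymes that handle extracellular nucleotides, Nt5e (CD73), which makes adenosine, read 2.50, 2.65 and 2.65 in B cells and 9.72, 9.81 and 9.66 in T cells, while Entpd1 (CD39), the enzyme before it, read 6.38, 5.94 and 6.15 in B cells and 2.24 on each T cell array. The ATP-gated channel P2rx7 differed by -4.43 ± 0.17. The proton channel Hvcn1 was higher in B cells, at 12.49, 12.57 and 12.63 against 9.71, 9.91 and 9.74 in T cells.

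Enzymes that make sialic acid and glycan ligands were higher in B cells in 7 of 17 cases, lower in 9 and not called in 1 (median -0.28, against -0.27 over all genes, of which 25.4% were higher and 51.1% lower). The ganglioside GD3 synthase St8sia1 read 3.57, 3.55 and 3.09 in B cells, against 10.03, 10.27 and 9.84 in T cells. Its upstream enzyme, the GM3 synthase St3gal5, read 7.68, 7.59 and 7.86 in B cells, against 4.54, 4.54 and 4.44 in T cells, so that 2 successive steps of the pathway differed in opposite directions. Gcnt1, which branches O-glycans, was higher in B cells (3.93 ± 0.23). St6gal1, which makes the ligand of Cd22, differed by 0.54 ± 0.07 and read 11.52, 11.53 and 11.60 in B cells and 10.97, 11.11 and 10.96 in T cells. The call of St3gal1 (1.5 ± 0.25) was lost when the mean over its probe sets was used.

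Genes with general functions served as a comparison. Of 21 cytoplasmic ribosomal protein genes 2 were higher, 3 lower and 16 not called in B cells, and all lay between -0.69 and 0.20. Rplp0, for example, read 14.80, 14.83 and 14.87 in B cells and 14.86, 14.84 and 14.87 in T cells (-0.02 ± 0.05). Their median of 0.03 changed sign when array medians were set equal and under quantile normalization. Of 28 proteasome genes 20 were lower, 4 higher and 4 not called, beside 51.1% lower and 25.4% higher of all genes (median -0.31, near that of all genes), with the catalytic subunit Psmb7, at 10.82, 10.78 and 10.92 in B cells and 8.97, 8.85 and 8.77 in T cells, as the largest exception (1.97 ± 0.12). The immunoproteasome subunits Psmb8, Psmb9 and Psmb10 were lower in B cells by -0.32 ± 0.06, -0.53 ± 0.06 and -0.52 ± 0.07.

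Cell cycle genes were higher in B cells in 17 of 22 cases, with 1 lower and 4 not called (median 1.15). Over all genes tested 25.4% were higher and 51.1% lower, with a median of -0.27. Mki67, the antigen of cycling cells, read 11.83, 11.84 and 11.90 in B cells, against 9.45, 9.39 and 9.27 in T cells, and the ribonucleotide reductase gene Rrm2 read 11.30, 11.24 and 11.29 in B cells, against 8.79, 9.0 and 8.79 in T cells. Both were well above the floor in T cells. Other genes of S phase and mitosis included Tk1 (2.62 ± 0.21), Aurka (2.44 ± 0.22) and Ccna2 (2.10 ± 0.07). Among the genes of the replicative helicase, Mcm6 (0.37 ± 0.07) and Mcm2 (0.24 ± 0.08) were higher and Mcm7 (-0.16 ± 0.07) was lower in B cells. Mcm5 (0.16 ± 0.08), Mcm3 (0.12 ± 0.08) and the sliding clamp gene Pcna (0.01 ± 0.06) did not pass. Erythroid genes were high on the same B cell arrays. Klf1, the erythroid transcription factor, read 9.08, 9.09 and 9.38 in B cells and 8.16, 7.94 and 7.73 in T cells. The part of erythroid precursors or of dividing lymphocytes in the cell cycle difference was not tested.

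**Figure D4:**
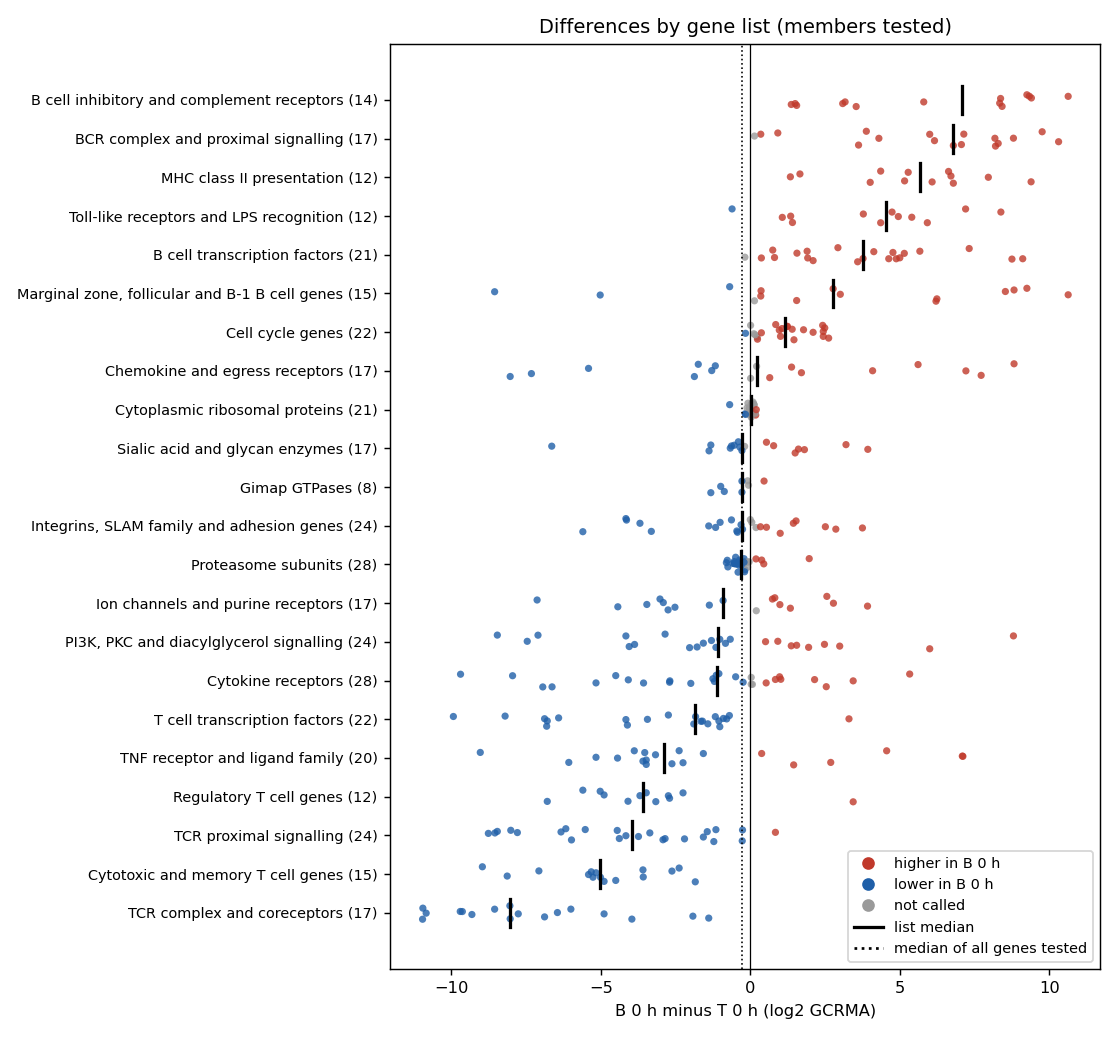
Difference in log2 signal, B cells minus T cells at 0 h, for every tested member of 22 gene lists (points, number of members in brackets), with the list median as a bar and the median of all 9044 genes as a dotted line. Lists of B cell genes lie to the right and lists of T cell genes to the left, and ribosomal protein genes lie between -0.69 and 0.20.

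The chromosomal order of genes with large differences was also examined. Of 9025 genes placed by their order in RefSeq, 229 neighbouring pairs were both at least 4-fold apart, 160 of them in the same direction and 69 in opposite directions. There were 19 runs of 3 or more such genes, 3 higher and 16 lower in B cells. Besides the class II genes, they included Cd3g, Cd3d and Cd3e on chromosome 9, Cd28, Ctla4 and Icos with Abi2 and Raph1 on chromosome 1, Il1rl2, Il18r1 and Il18rap on the same chromosome, Cd5 and Cd6 on chromosome 19, Cd96 and Trat1 with Plcxd2 on chromosome 16, and the C1q genes on chromosome 4. The C1q genes are macrophage markers. Pairs of neighbours are not independent, and no test was made.

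The difference between B and T cells was then followed into the 4 h arrays, where B cells had received LPS and T cells ConA, so that stimulus and cell type differ together. There, 7053 genes (78.0%) were called, 2524 (27.9%) higher and 4529 (50.1%) lower in B cells. Of all genes tested, 4462 (49.3%) were called in the same direction at both times and 1112 (12.3%) in opposite directions. The B cell arrays lay wholly on opposite sides of the T cell arrays at the 2 times in 1243 genes (13.7%), 125 (1.38%) of them with at least a 2-fold difference at both. The 1293 genes shared by the higher calls were 56.2% of those at rest and 51.2% of those at 4 h, and the 3169 shared by the lower calls were 68.5% and 70.0%. Of the 576 genes at least 4-fold higher in B cells at rest, 411 (71.4%) were still called higher at 4 h, 41 (7.12%) were called lower and 124 were not called, and their median difference was 3.56 at rest and 1.8 at 4 h. Of the 703 at least 4-fold lower, 619 (88.1%) were still called lower and 18 (2.56%) higher, with medians of -3.10 and -2.73. Xist, which silences the X chromosome in female cells, was not called between resting B and T cells (adjusted p = 0.505, limma) and had a mean of 12.25 in resting T cells, but means of 2.35 in B cells with LPS and 3.19 in T cells with ConA at 4 h. The Y-linked Eif2s3y was present in all of them, with means of 10.79 in resting B cells, 10.73 in resting T cells, 10.96 in B cells with LPS and 11.65 in T cells with ConA. The part of the animals' sex in the comparison of times was not tested.

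The genes with the largest differences at rest were followed singly. Of the 15 largest differences in each direction, 14 of those higher and 15 of those lower in B cells at rest were called in the same direction at 4 h. The exception was Marchf1, which averaged 2.25 ± 0.03 in B cells after LPS and 2.24 in T cells after ConA, where all 3 arrays were at the floor (SD, n = 3). Fcrl1 differed by 9.33 ± 0.11 at rest and 9.13 ± 0.11 at 4 h, and Cd3d by -10.96 ± 0.15 and -10.32 ± 0.15. Other receptor genes differed less at 4 h, among them Cr2 (5.41 ± 0.18), Cd79a (7.74 ± 0.07), Cd22 (3.68 ± 0.15) and Siglecg (5.68 ± 0.10). Of the 11 macrophage markers 6 were still higher in B cells at 4 h and none was lower, with a median of 0.45 in place of 5.76, while 8 of 9 erythroid markers were still higher. The B cell factor list had 12 members higher and 8 lower at 4 h, those lower including Ikzf3 (-2.82 ± 0.12), Bach2 (-3.23 ± 0.05) and Irf4, with means of 12.62 for B cells and 13.15 for T cells. All 24 genes of T cell receptor signalling and all 17 of the receptor complex were lower in B cells at 4 h. Of 22 T cell factors 16 were lower and 2 higher at 4 h, and of 12 regulatory T cell genes 10 were lower and 2 higher. The B cell receptor list had 14 of 17 genes higher and 3 lower, and the class II list 10 of 12 higher and 1 lower. Over all genes at 4 h, 27.9% were higher and 50.1% lower in B cells. Whether these differences changed between the times was not tested.

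**Figure D5:**
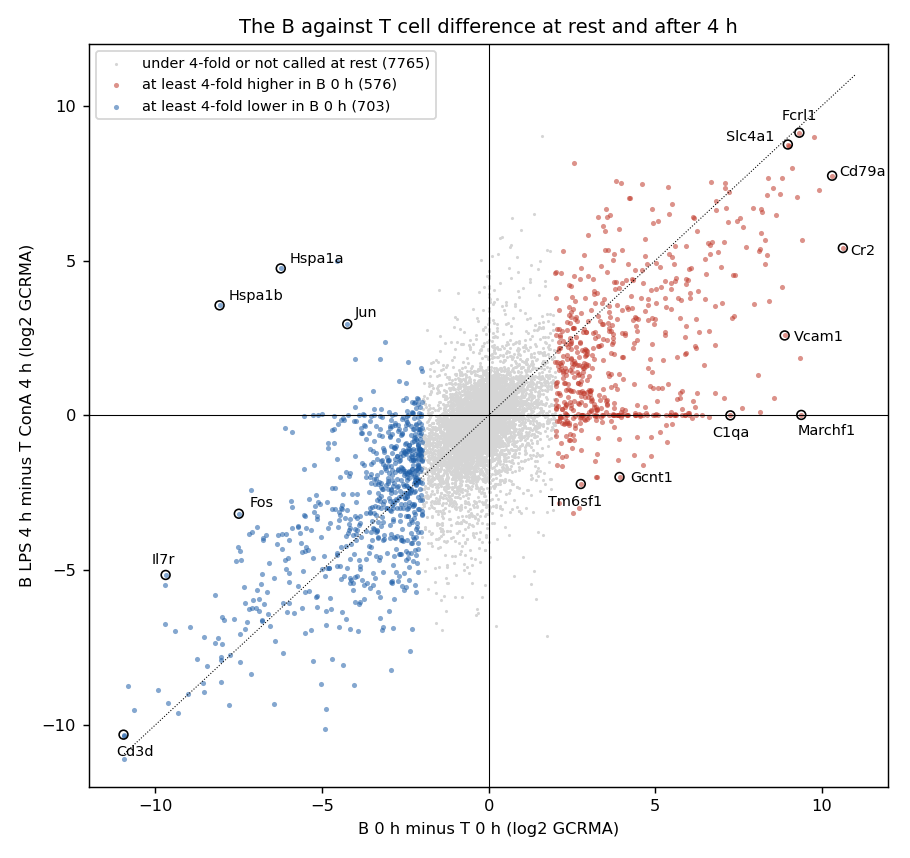
Difference in log2 signal between B and T cells at 0 h (horizontal axis) and between B cells after 4 h with LPS and T cells after 4 h with ConA (vertical axis) for 9044 genes, with genes at least 4-fold higher or lower in B cells at rest in colour. Most coloured points stay on their side of 0, C1qa and Marchf1 lie at 0 at 4 h, and Hspa1a, Hspa1b and Jun lie on opposite sides.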

How the data were processed

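The deposited values are log2 signals that the authors made with GCRMA, which corrects the background by probe sequence, normalizes the arrays to each other and summarises probe sets, per the submitters' processing notes. The sources used here give no version of it. From the 45101 probe sets, 64 controls, 932 with several symbols and 9160 with none were left out, which left 34945. The brightest probe set per gene over the 15 arrays was kept, and 9044 of 18193 genes whose highest mean in any of the 5 groups was at least 5 were tested.

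The values of the 15 arrays entered one model with a mean for each of the 5 groups, using limma 3.58.1 under R 4.3.3 (10 residual and 3.16 prior degrees of freedom). Each SE of a difference comes from this fit. Its spread is estimated over all 5 groups and drawn toward that of the other genes, so it can exceed the spread of the resting arrays. Genes with a Benjamini-Hochberg adjusted p under 0.05 over the 9044 were called.

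The members and the 22 gene lists were chosen with earlier results of these data known. Genes were named by a rule: the 15 largest differences in each direction among called genes with a mean of at least 7 and no overlap (leaving out antigen receptor segments and predicted or RIKEN genes without a name), the 6 markers, and from each list up to 6 called genes with the largest differences and up to 3 that went against its side, 138 genes in all. Further list members are named to show the range of each list and were chosen after their values were seen. Alternatives changed the normalization, filter, probe set, arrays in the fit, variance prior and replicate block, and left out each array. Promoters are from RefSeq (GRCm38.p6).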

Additional observations from a re-analysis of the deposited data

Results flagged for a closer look

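For 66 of 470 list and named genes, all 3 B cell arrays lay on one side of all 3 T cell arrays at rest and on the other side at 4 h, after LPS for B cells and ConA for T cells. Among all 9044 genes this held for 1243 (13.7%). The 20 of the 66 with a difference of at least 2-fold at both times are given here, and 125 (1.38%) of all genes met that. The 470 genes include 4 lists grouped after their values were seen, and the other lists were chosen with earlier results known. Setting their numbers beside those of all genes is therefore no test. The change between the times was not tested as an interaction.

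Among genes higher in B cells at rest, the 4 h difference was -1.99 for Gcnt1, an O-glycan branching enzyme, -1.44 for Ralgps2, an exchange factor for Ral, -2.82 for Ikzf3 (Aiolos), -1.3 for Id3, an inhibitor of E proteins, -1.28 for H2-DMa, a class II chaperone, -2.45 for Cd1d1, which presents lipids, -2.22 for Tm6sf1, -1.8 for Slamf1 and -3.78 for Egr3. The neutrophil genes S100a8 and S100a9 were also among them, at -3.0 and -3.16, and their T cell mean at 4 h was 10.19 and 8.65. For Slamf1, 1 of its 2 further probe sets shared the direction at rest.

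Among genes lower in B cells at rest, the 4 h difference was 1.1 for Il2ra, the high-affinity interleukin receptor chain of activated lymphocytes, 1.7 for the homing receptor Ccr7, 2.95 for Jun, 4.75 for Hspa1a and 3.55 for Hspa1b, both inducible heat shock genes, 4.99 for Ifit1, 2.74 for Ifit2 and 4.06 for Usp18, which are induced by interferon, and 1.05 for the fatty acid synthase gene Fasn.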

How the results depend on the processing

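The number of genes called was 6927 of 9044 tested. Under the alternatives it lay between 6083 of 7722 (highest group mean at least 7) and 7318 of 18193 (no filter), so the share called was much smaller without the filter. Leaving out each array in turn gave 6610 to 6723 calls, 2894 to 3010 of at least 2-fold, 4292 to 4378 called in the same direction at 4 h, 338 to 342 called list members and 136 to 137 of the 138 named genes. The share of calls higher in B cells was 33.2%, and it was 28.0% with array medians set equal, 38.4% with quantile normalization, 41.4% with cyclic loess and 48.3% with the median of the tested genes set equal, an alternative chosen after seeing the data. The replicate numbers of the titles did not pair the samples (correlations of deviations 0.001, -0.012 and 0.034 for equal numbers), and a fit with the replicate block called 6860 genes, 2277 higher and 4583 lower. For single genes, 2448 values kept direction and side of the threshold, 18 lost the call, and 6 turned sign. Rpl11 turned to 0.05 with cyclic loess and 0.08 with the tested median set equal, and Rps24 to 0.07 and 0.09 there, to 0.12 with the probe set brightest at rest and to 0.0 with the mean over probe sets. The cause was not tested. The floor limits what low values show: of the 2944 genes called with at least a 2-fold difference, 274 higher and 390 lower in B cells have a lower bound only.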

Other observations

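Genes of early activation and stress were grouped after their values were seen. Of 17 immediate early genes 11 were lower, 2 higher and 4 not called in B cells (median -1.42), beside 51.1% lower and 25.4% higher of all genes. Fos read 4.18, 3.67 and 3.67 in B cells, against 11.35, 11.38 and 11.27 in T cells (-7.5 ± 0.11), and Jun read 5.92, 6.22 and 4.89 in B cells, against 9.85, 9.89 and 10.01 in T cells. Of 9 heat shock genes 7 were lower and 2 not called in B cells. Hspa1b read 4.41, 4.51 and 4.41 in B cells, against 12.45, 12.49 and 12.6 in T cells. Of 15 interferon-stimulated genes 8 were higher and 5 lower, with Rsad2 at 6.68 ± 0.11 and Ifit1 at -4.56 ± 0.22. Of 14 fatty acid and sterol genes 6 were higher and 8 lower in B cells.

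Large differences were also found outside the lists. Higher in B cells were Trim7 (8.58), Fcmr, the Fc receptor for IgM (8.31), the protease Ctsh (8.15), the kinase Lrrk2 (8.14), Cybb, a subunit of the phagocyte oxidase (7.46), and Icosl, the ligand of Icos (6.9). Lower in B cells were the ubiquitin ligase Rnf125 (-8.21), Als2cl (-8.01), Ms4a4b (-7.57), Slfn1 (-7.45) and the kinase Camk4 (-7.25). Cybb is also a gene of phagocytes, whose markers were higher on the B cell arrays.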
